A study of Mus musculus with 4 samples.

Results

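MHC class I and the immunoproteasome are described here through 10 genes of macrophages sorted from the injured mouse nerve: B2m, H2-D1, H2-K1, Tap1, Tap2, Tapbp, Psmb8, Psmb9, Psmb10 and Nlrc5. They were chosen by symbol, with earlier results of these data known, and 10 of the 24028 genes in the table are members. Aged females of 15 months were set against young females of 3 months, with 2 libraries per age. Every mouse carried the reporters Cx3cr1-GFP+/- and Ccr2-RFP+/-, so the young controls bear both alleles too, and all cells came from sciatic nerve on day 3 after nerve injury. The labels call the sorted macrophages CCR2+ Cx3cr1+. Between 7 and 8 mice per time point were pooled into the libraries, and nothing in the sources used here says which animal went into which pool, so any p-value measures the spread between pools. Both reporters are knock-in alleles, which leave 1 intact copy of each receptor gene.

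Class I molecules display peptides from the cell's own proteins to CD8 T cells. The proteasome cuts the peptides, a transporter pumps them into the endoplasmic reticulum, and tapasin helps load them onto a heavy chain paired with beta-2-microglobulin. Interferon replaces the catalytic subunits of the standard proteasome with those of the immunoproteasome and raises the other parts of the pathway through IRF and STAT factors and the class I regulator NLRC5.

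The difference between ages went in both directions within this pathway, and no gene of the table passed the test. In 6 of the 10 members, B2m, H2-D1, H2-K1, Tap1, Psmb8 and Psmb9, both aged values were below both young values. In Psmb10 both aged values were above both young values, and in Tap2, Tapbp and Nlrc5 the groups overlapped. Among all 11656 genes tested, both aged values were below both young ones in 26.2% and above in 11.8%. The members' median log2 difference, aged minus young, was -0.32, beside -0.09 for all genes tested. Of the same 11656 genes, limma called 0.0% higher and 0.0% lower at an adjusted p of 0.05, while 1.76% were higher and 4.87% lower at an unadjusted p of 0.05, B2m among them.

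All values are FPKM (fragments counted per unit of gene length and of sequencing depth) brought to each library's own read total, which was 8613360 and 9986706 reads in the aged and 11489336 and 10765234 reads in the young libraries. At these totals 1 read in a gene of 1 kb is worth 0.0870 to 0.116 FPKM. The members' values rest on between 150 reads, for Tap2 in young replicate 1, and 25743 reads, for H2-D1 in the same library. These reads are the smallest whole numbers that the values allow, so they may be too low. All 10 members passed the minimum mean of 1 FPKM for testing. A difference in these sorted pools cannot tell fewer cells of a type from less RNA per cell.

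**Figure D1:**
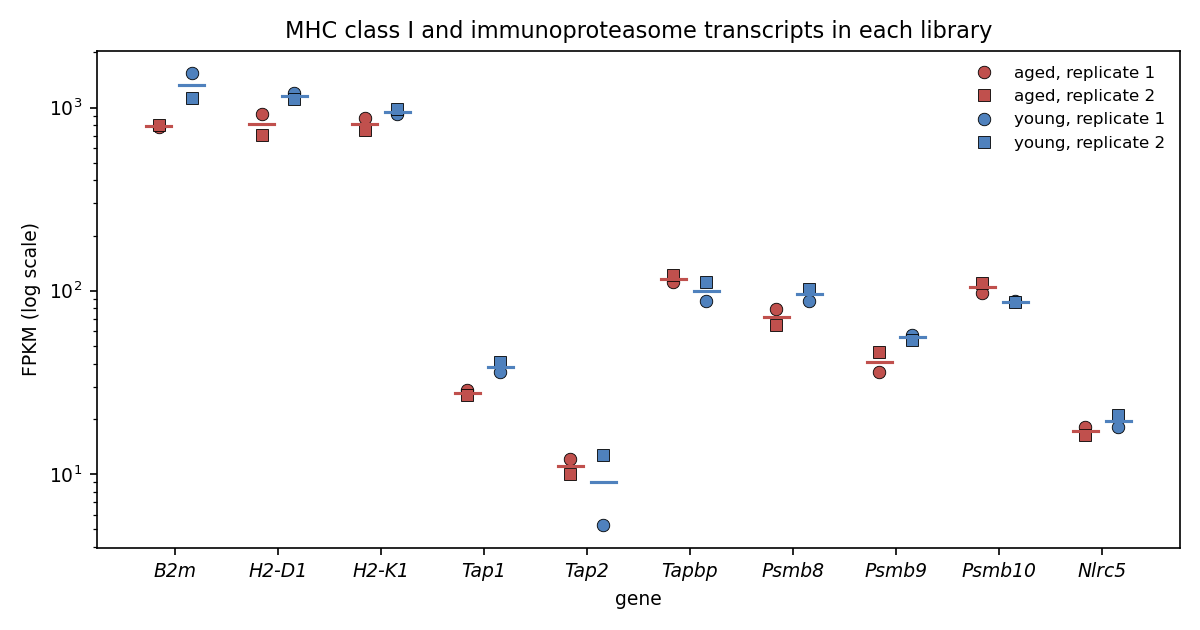
FPKM of each member in each library on a log scale, with aged libraries (red) left of young libraries (blue) and a bar at each group's mean (n = 2). The members span from 5.24 FPKM for Tap2 to 1538 FPKM for B2m, and the red points lie below the blue ones in 6 genes.

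B2m encodes beta-2-microglobulin, the light chain that every class I heavy chain needs to reach the cell surface. Its level was 779 and 808 FPKM in the aged libraries, against 1538 and 1127 FPKM in the young libraries. The aged libraries were close together while the young ones lay apart, and the groups did not overlap. The means were 793 ± 20.03 FPKM in aged and 1333 ± 291 FPKM in young macrophages (SD, n = 2 each), a level 1.68-fold higher in young. The log2 difference of B2m was -0.73 (SE 0.23, 95% interval -1.28 to -0.18), with an unadjusted p of 0.0178 and an adjusted p of 0.740 (limma, two-sided). By abundance B2m ranked 52 and 43 among all genes of the table in the aged libraries and 21 and 24 in the young libraries.

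H2-D1, a classical heavy chain that holds the peptide, was 928 and 705 FPKM in aged macrophages, against 1195 and 1113 FPKM in young macrophages. The aged libraries spread more widely than the young ones, and both lay below them. The log2 difference was -0.51 (SE 0.22, 95% interval -1.05 to 0.02), with an adjusted p of 0.740 (limma).

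H2-K1, the other classical heavy chain among the members, was 872 and 750.2 FPKM in aged and 919 and 977 FPKM in young libraries. Here the groups were separated by a narrow gap, smaller than the gap within the aged pair. Its log2 difference of -0.23 (SE 0.20) was below that of B2m and H2-D1 in size, with an adjusted p of 0.809 in limma. Heavy chain genes resemble each other, and 12.8% of the 50-base stretches of H2-D1 and 9.63% of those of H2-K1 also occur in another gene, mostly in H2-Q1, H2-Q7 or H2-Q10 and in each other. How reads from such stretches were counted is not stated, so the effect on these levels is not known.

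The 3 genes were close to each other in abundance, with B2m first, H2-D1 next and H2-K1 last in both young libraries and another order in each aged library. B2m was the highest in both young libraries and in aged replicate 2, but the lowest in aged replicate 1. The summed FPKM of both heavy chains over that of B2m was 2.31 and 1.80 in aged libraries and 1.37 and 1.85 in young libraries. These ratios overlap between the ages.

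The promoters of these 3 genes are shown because they share a regulatory layout that the other members' windows do not have. The windows run from 250 bases before to 50 bases after an annotated start (RefSeq, GRCm38.p6). Capitals mark a match to the IRF core AANNGAAA on either strand, and then the elements TGACG and ATTGG when they are 20 bases apart, as in the X2 and Y boxes at which NLRC5 acts. B2m lies at chr2:122147437-122147736 on the plus strand, H2-D1 at chr17:35262844-35263143 on the plus strand and H2-K1 at chr17:34000298-34000597 on the minus strand.
B2m: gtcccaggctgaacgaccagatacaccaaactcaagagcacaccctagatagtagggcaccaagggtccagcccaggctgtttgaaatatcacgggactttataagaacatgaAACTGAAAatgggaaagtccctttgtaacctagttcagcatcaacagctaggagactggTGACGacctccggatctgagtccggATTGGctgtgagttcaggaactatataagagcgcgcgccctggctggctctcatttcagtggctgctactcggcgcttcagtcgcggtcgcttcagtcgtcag
H2-D1: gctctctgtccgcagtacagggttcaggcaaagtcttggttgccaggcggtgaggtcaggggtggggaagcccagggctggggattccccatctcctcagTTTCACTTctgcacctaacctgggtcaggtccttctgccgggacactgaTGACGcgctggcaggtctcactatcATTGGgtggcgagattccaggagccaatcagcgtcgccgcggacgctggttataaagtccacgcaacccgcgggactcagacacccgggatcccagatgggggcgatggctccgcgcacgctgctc
H2-K1: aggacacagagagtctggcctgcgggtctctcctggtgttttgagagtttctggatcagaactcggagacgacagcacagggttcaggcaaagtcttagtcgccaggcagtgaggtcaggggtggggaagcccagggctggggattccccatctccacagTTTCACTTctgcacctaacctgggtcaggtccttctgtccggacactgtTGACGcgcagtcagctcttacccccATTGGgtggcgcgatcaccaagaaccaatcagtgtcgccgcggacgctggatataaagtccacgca

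The spaced pair was put together after reading these 3 sequences, and it was then searched on both strands in every RefSeq promoter window. It occurred in 31 of 32851 windows (0.0944%), those of 27 genes, and among the 8 members with a window in B2m, H2-D1 and H2-K1. The 27 genes also included H2-M3, a heavy chain that presents formylated peptides, at 22.2 and 33.0 FPKM in aged and 23.8 and 30.6 FPKM in young libraries. Its groups overlapped. Of the 15 genes with the pair that were tested and are not members, H2-M3 included, both aged values were below both young values in 5 and above in 1. Among all genes tested the shares were 26.2% and 11.8%. Whether the pair of elements bears on the difference between ages was not tested.

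The IRF core stood 137 bases before the start in B2m, 150 in H2-D1 and 90 in H2-K1, and in none of the other 5 members' windows, whereas 23.9% of all windows hold it. The 10-base NF-kB consensus was found in the same 3 members, 126 bases before the start of B2m, and in 8.46% of all windows. In H2-D1 and H2-K1 it began 171 and 111 bases before the start. The windows of H2-D1 and H2-K1 are nearly identical around the IRF and NF-kB matches, so these are not independent occurrences. The annotated start used for H2-K1 lies inside the gene, which RefSeq places from 33996012 to 34000619 on the minus strand. The H2-K1 distances are therefore not comparable with those of B2m and H2-D1. The STAT site TTCNNNGAA occurred in Psmb8 alone of the 8, 97 bases before its start, and in 8.30% of all windows. These matches are descriptions of the letters, which overlap in part, and the windows of Tap2 and Nlrc5 were not used.

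**Figure D2:**
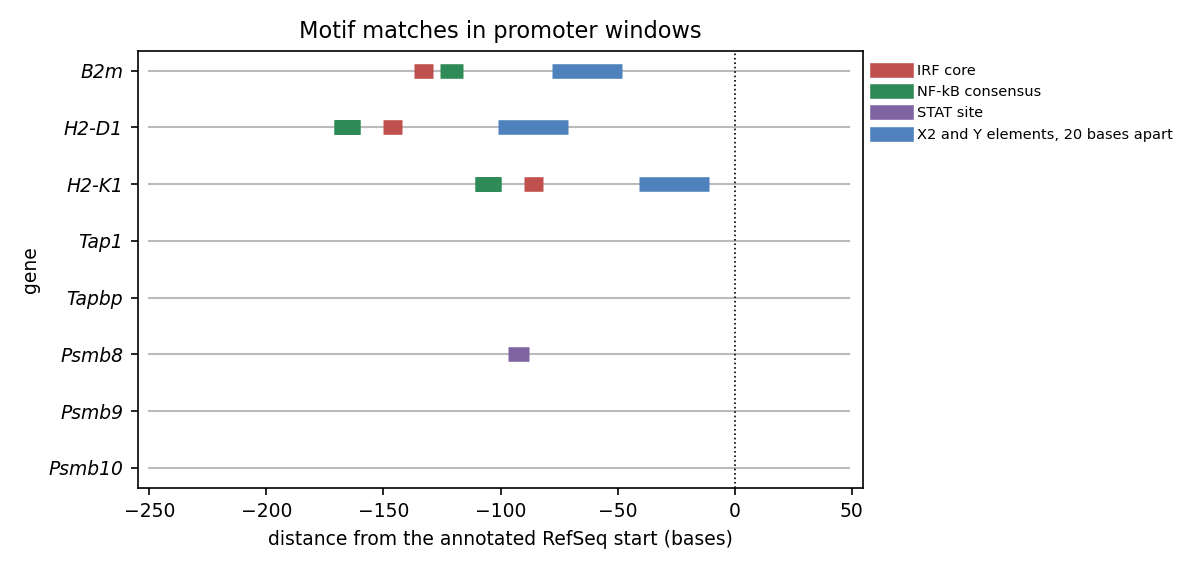
Motif matches in the promoter windows of 8 members, by distance in bases from an annotated RefSeq start (dotted line). The start used for H2-K1 lies inside the gene. B2m, H2-D1 and H2-K1 carry an IRF core, an NF-kB consensus and the pair of X2 and Y elements 20 bases apart, and Psmb8 carries a STAT site.

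Of the 3 members that supply and load peptides, Tap1 alone separated the ages. Tap1 encodes a subunit of the transporter that moves peptides into the endoplasmic reticulum, and it was 28.7 and 26.8 FPKM in aged libraries, against 36.1 and 41.0 FPKM in young libraries. The values of each age lay close together and the groups did not overlap. The log2 difference of Tap1 was -0.46 (SE 0.21), with an unadjusted p of 0.0722 and an adjusted p of 0.740 by limma.

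Tap2 encodes the partner subunit with which Tap1 forms the transporter. It was 12.03 and 9.97 FPKM in aged macrophages and 5.24 and 12.7 FPKM in young macrophages. Young replicate 1 was the lowest of the libraries and young replicate 2 the highest, so the groups overlapped. The log2 difference of 0.37 (SE 0.41, adjusted p 0.860, limma) became -0.20 without young replicate 1. Behind the young values stood 150 and 341 reads, against 258 and 248 reads in the aged libraries. Exons of Gm15821 on the opposite strand overlap 14.1% of the exon bases of Tap2, and the sources used here do not say whether reads were counted by strand.

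Within a library the Tap1 level exceeded that of Tap2 in all 4 cases. The ratio of Tap1 to Tap2 was 2.38 and 2.69 in aged libraries, against 6.89 and 3.22 in young libraries. Both aged ratios were thus lower than both young ratios, and the higher of the young ones is that of young replicate 1, where Tap2 was lowest. This ratio and that of Tapbp to Tap1 were not planned. How often the ratio of any pair of genes separates the ages was not determined.

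Tapbp encodes tapasin, which bridges the transporter and the empty heavy chain. It was 111.0 and 122 FPKM in aged and 88.0 and 111.1 FPKM in young libraries. Aged replicate 1 and young replicate 2 had almost the same level, so the groups touched. The log2 difference was 0.23 (SE 0.21, adjusted p 0.819, limma). Exons of Gm19412 on the opposite strand overlap 24.9% of its exon bases. Since Tapbp and Tap1 lay on different sides of 0, Tapbp over Tap1 was 3.87 and 4.55 in aged and 2.43 and 2.71 in young libraries.

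Among the immunoproteasome subunits, which interferon gamma induces, the lower and the higher values were in different genes. Psmb8 (LMP7), the chymotrypsin-like subunit, was 79.3 and 65.1 FPKM in aged macrophages and 88.4 and 103 FPKM in young macrophages. Psmb9 (LMP2) was 35.9 and 46.2 FPKM in aged libraries, against 57.4 and 54.1 FPKM in young libraries. In both genes the ages did not overlap, and in Psmb9 the aged pair was the more spread. The ratio of Psmb9 to Psmb8 overlapped between ages, at 0.452 and 0.710 in aged and 0.650 and 0.526 in young libraries. The log2 differences were -0.40 (SE 0.21) for Psmb8 and -0.44 (SE 0.22) for Psmb9, with adjusted p-values of 0.755 and 0.740 in limma.

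Psmb10 (MECL-1), the trypsin-like subunit, was 97.7 and 111 FPKM in aged libraries, against 88.0 and 86.7 FPKM in young libraries. It was the only member with both aged libraries above both young libraries. The log2 difference was 0.25 (SE 0.19, 95% interval -0.22 to 0.72), and the adjusted p was 0.792 by limma.

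Psmb9, Tap1, Psmb8 and Tap2 are neighbours on chromosome 17, from 34182030 to 34216321 (GRCm38.p6), within 34292 bases of the class II region. Psmb9 on the minus strand and Tap1 on the plus strand are transcribed away from each other from RefSeq starts 225 bases apart. Their 2 windows overlap by 275 bases, and that of Tap1, at chr17:34187306-34187605, is printed with those 225 bases in capitals because both genes had lower values in aged macrophages.
Tap1: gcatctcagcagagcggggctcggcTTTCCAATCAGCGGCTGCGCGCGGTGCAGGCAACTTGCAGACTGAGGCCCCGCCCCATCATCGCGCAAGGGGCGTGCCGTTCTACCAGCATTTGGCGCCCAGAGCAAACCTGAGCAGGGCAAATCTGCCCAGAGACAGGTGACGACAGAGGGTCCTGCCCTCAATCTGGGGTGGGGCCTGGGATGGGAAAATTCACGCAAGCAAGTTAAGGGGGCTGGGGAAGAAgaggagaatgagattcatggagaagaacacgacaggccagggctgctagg

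Of this cluster, 3 genes had both aged libraries below both young ones, beside 26.2% of all genes tested, and Tap2 at its far end did not. Psmb9 overlapped between ages when the libraries were divided by the median of ratios over genes. Whether the shared position matters was not tested. Psmb10 and Nlrc5 lie apart from it on chromosome 8, and B2m lies on chromosome 2. In GENCODE M21, where a transcript of Psmb9 starts farther upstream than in RefSeq and reaches into Tap1, exons of both genes overlap on opposite strands over 3.87% of the exon bases of Tap1, and exons of Gm20496 overlap 14.7% of those of Psmb8.

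Each inducible subunit takes the place of a constitutive one in newly built proteasomes. Psmb5, the counterpart of Psmb8, was 17.7 and 19.5 FPKM in aged macrophages, against 12.3 and 12.2 FPKM in young macrophages. It differed in the opposite direction to Psmb8, with a log2 difference of 0.57 (SE 0.23, adjusted p 0.740, limma). The ratio of Psmb8 to Psmb5 was therefore 4.47 and 3.33 in aged libraries and 7.19 and 8.45 in young libraries.

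For Psmb10 over its counterpart Psmb7 the order was the other way round, at 2.75 and 3.19 in aged and 1.89 and 2.17 in young libraries. Psmb7 itself was 35.6 and 34.7 FPKM in aged libraries, against 46.6 and 39.9 FPKM in young libraries. Psmb9 over Psmb6 did not separate the ages, at 1.74 and 3.10 in aged and 2.54 and 2.35 in young libraries, with Psmb6 at 20.6 and 14.9 FPKM in aged and 22.6 and 22.95 FPKM in young libraries.

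Taken as differences of log2(FPKM + 1), these 3 ratios differed between ages by -0.97, -0.08 and 0.54 for Psmb8, Psmb9 and Psmb10. The exact permutation p (two-sided) was 0.333 for Psmb8 and Psmb10, the smallest that 2 against 2 libraries allow, and 1.0 for Psmb9. Every inducible subunit was above its constitutive counterpart in every library. The 3 ratios of FPKM do not depend on how the libraries are scaled to each other by a factor. Their log2(FPKM + 1) differences are not fully free of it, because of the added 1.

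**Figure D3:**
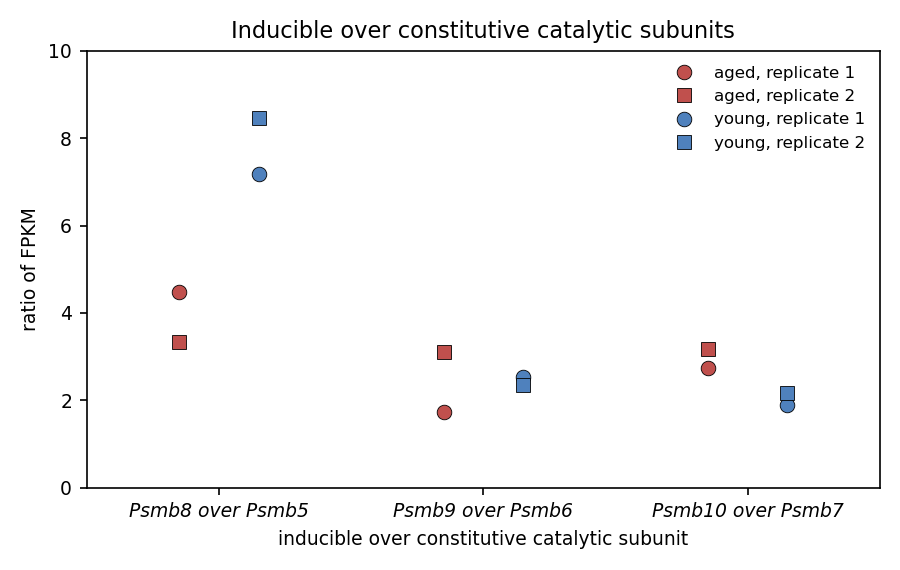
Ratio of FPKM of each inducible catalytic subunit to its constitutive counterpart in each library, with aged libraries (red) left of young libraries (blue). Psmb8 over Psmb5 lies at 3.33 and 4.47 in aged and at 7.19 and 8.45 in young libraries, and Psmb10 over Psmb7 is higher in the aged ones.

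Nlrc5, the transcriptional regulator of class I genes, was 18.1 and 16.4 FPKM in aged macrophages and 17.9 and 21.05 FPKM in young macrophages. Aged replicate 1 lay between the young libraries, so the groups overlapped. The log2 difference was -0.17 (SE 0.23, 95% interval -0.73 to 0.40, adjusted p 0.891, limma). Among the members Nlrc5 ranked above Tap2 alone in level in every library.

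**Figure D4:**
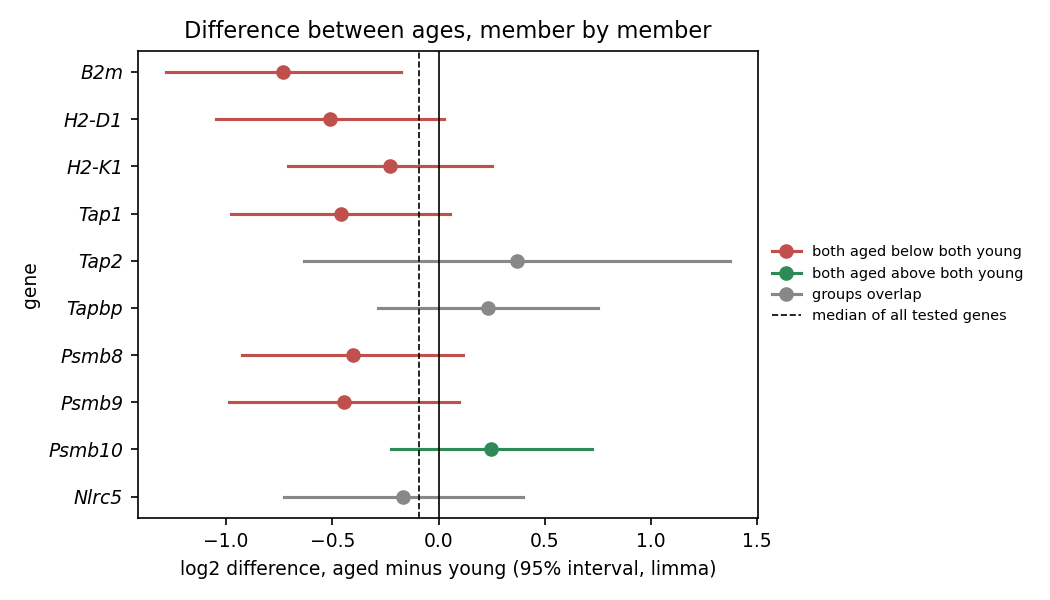
Log2 difference of each member, aged minus young, with its 95% interval from limma. The intervals of 9 members cross 0 and that of B2m does not, before adjustment over 11656 genes, and the dashed line marks the median of all tested genes at -0.09.

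By level the members fell into the same tiers in aged and young libraries. B2m, H2-D1 and H2-K1 lay between 705 and 1538 FPKM, and Tapbp, Psmb10 and Psmb8 between 65.1 and 122 FPKM. Psmb9 and Tap1 followed at 26.8 to 57.4 FPKM, with Psmb9 above Tap1 in each library, and then Nlrc5 and Tap2. Within the second tier Tapbp was ahead of Psmb10 in both aged libraries, while in the young libraries it overlapped with both, and Psmb8 was above Psmb10.

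Other genes of the pathway were read from 5 lists with 79 entries, chosen with earlier results of these data known. None of their genes passed limma's test in either direction. Both aged values were below both young values in 42.9% of the tested heavy chains and class I-like genes, 54.5% of the loading genes, 33.3% of the activators and assembly factors, 7 of the 14 constitutive subunits and 47.8% of the regulators, beside 26.2% of all genes tested. Among heavy chains and class I-like molecules, 14 of 20 genes were tested, with both aged libraries below both young libraries in 6 and above in 0, and a median of -0.41. H2-T23 (Qa-1), which presents leader peptides of other class I chains, was 36.2 and 29.3 FPKM in aged and 39.9 and 49.5 FPKM in young libraries. H2-Q4 and H2-Q7 overlapped between ages, at 34.4 and 23.3 against 27.0 and 45.1 FPKM, and at 38.4 and 18.2 against 36.6 and 40.9 FPKM, aged before young in each. H2-Q7 shares 50-base stretches with H2-D1 and H2-K1, which stood at 705 to 1195 FPKM, so its level may include their reads. The most abundant of the list were Fcgrt, the neonatal Fc receptor, at 113 ± 31.2 FPKM in aged and 107 ± 39.4 FPKM in young cells, and Hfe, which regulates iron uptake, at 65.9 ± 16.2 and 71.5 ± 4.64 FPKM in the same order.

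For peptide loading and trimming, both aged values were below both young values in 6 of 11 genes, with a median of -0.54. Canx (calnexin), which holds newly made heavy chains, was 75.0 and 74.4 FPKM in aged macrophages, against 104.3 and 104.5 FPKM in young macrophages. Erap1, the peptidase that trims peptides to length, was 14.9 and 8.66 FPKM in aged and 20.4 and 21.7 FPKM in young libraries. The log2 differences were -0.48 (SE 0.19) for Canx and -0.83 (SE 0.31) for Erap1, with an adjusted p of 0.740 for both in limma. The chaperones of the loading complex Calr, at 173 ± 4.21 FPKM in aged and 187 ± 26.1 FPKM in young cells, and Pdia3, at 92.7 ± 20.07 and 107 ± 2.70 FPKM, overlapped between ages. Uggt1, which checks the folding of glycoproteins and is named after its values were seen, was the 1 gene of the list with both aged libraries above, at 63.4 ± 0.692 FPKM in aged and 49.4 ± 2.40 FPKM in young cells.

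Proteasome activators and assembly factors had a median of -0.34 over 9 genes, with both aged libraries below both young libraries in 3: Psme1, Psmg1 and Pomp. Psme1 and Psme2 encode the PA28 cap that interferon gamma induces. Psme1 was 67.3 and 62.4 FPKM in aged libraries, against 82.8 and 101 FPKM in young libraries, and Psme2 was 12.5 and 15.0 FPKM in aged and 14.3 and 20.3 FPKM in young libraries. Psme3, of the nuclear cap, was 23.8 and 13.7 FPKM in aged and 22.8 and 32.2 FPKM in young libraries. Psmg1 and Pomp, which help assemble the core and are named after their values were seen, were 3.57 ± 1.45 and 5.08 ± 1.98 FPKM in aged cells, against 9.06 ± 0.680 and 8.21 ± 0.0591 FPKM in young cells.

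The constitutive core subunits had a median of -0.34 over 14 genes, with both aged libraries below in 7 and above in 1, which was Psmb5. The most abundant, Psmb4 and Psma6, overlapped between ages, at 136 ± 53.8 and 114 ± 11.8 FPKM in aged and 152 ± 35.4 and 132 ± 40.4 FPKM in young cells. Of the 3 inducible subunits, Psmb8 and Psmb9 were below and Psmb10 above.

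Among 23 tested regulators of class I transcription the median was -0.18, with both aged libraries below in 11 and above in 3. Irf1 and Irf2 encode factors that bind the IRF core printed above. Irf2 was 14.5 and 13.7 FPKM in aged macrophages, against 25.3 and 28.8 FPKM in young macrophages, with a log2 difference of -0.89 (SE 0.22, unadjusted p 0.00710, adjusted p 0.740, limma). Irf1 was 35.3 and 26.8 FPKM in aged and 44.9 and 42.6 FPKM in young libraries, and its groups did not overlap either.

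Irf7, a factor of the type I interferon response, was 87.3 and 73.0 FPKM in aged macrophages, against 113 and 169 FPKM in young macrophages. Ifngr1, which encodes the ligand-binding chain of the interferon gamma receptor, overlapped between ages, at 388 and 316 FPKM in aged and 337 and 341 FPKM in young libraries. Ciita, the class II counterpart of Nlrc5, was 3.61 and 4.09 FPKM in aged and 7.24 and 6.42 FPKM in young libraries, and Rfx5, a subunit of the factor that binds the X box, was 1.64 and 1.04 FPKM in aged and 1.77 and 2.70 FPKM in young libraries. The 3 genes with higher values in both aged libraries were Ifnar2, Rela and Rfxank, named after their values were seen. Ifng, the gene of interferon gamma, was at most 0.770 FPKM in any library and was not tested.

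**Figure D5:**
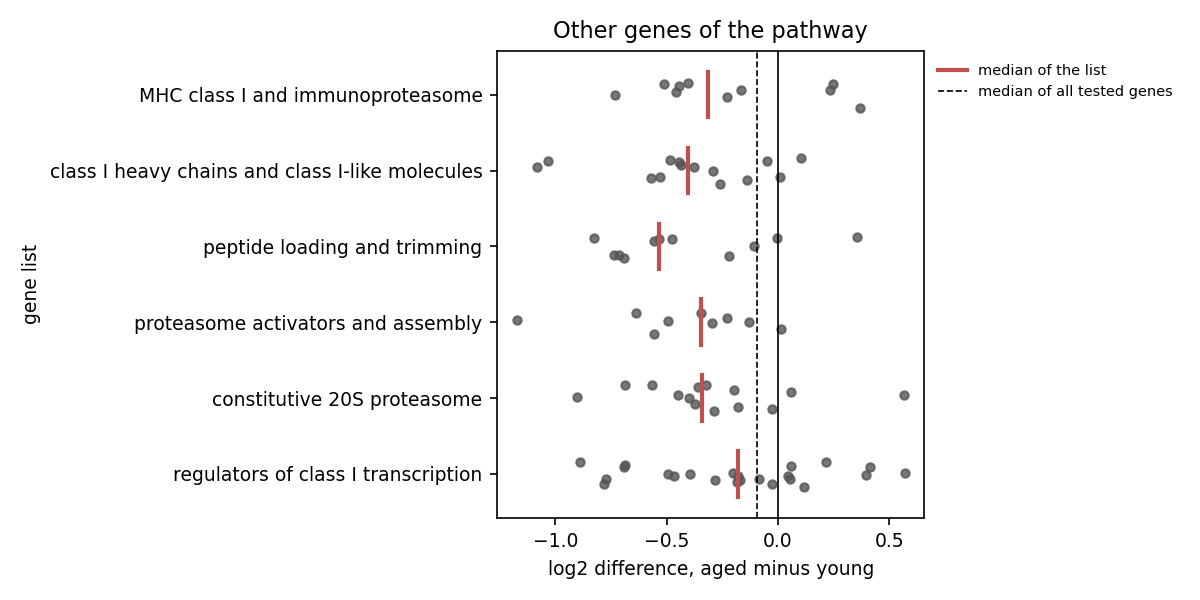
Log2 difference of every tested gene, aged minus young, for the 10 members and the 5 lists, with the median of each list in red. The medians lie between -0.54 and -0.18, and the dashed line marks the median of all tested genes at -0.09.

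The pattern most like the members' mean over the 4 libraries, among 1213 other genes with a mean of at least 50 FPKM, was that of Tgfbr2, Tmem106a and Ifi30. Their root mean square distances from it were 0.0138, 0.0206 and 0.0293 on the log2 scale. Tgfbr2, which encodes a receptor for TGF-beta, was 51.2 and 48.1 FPKM in aged and 53.9 and 59.6 FPKM in young libraries. Tmem106a was 81.4 and 78.7 FPKM in aged and 85.9 and 99.3 FPKM in young libraries. Ifi30, a lysosomal thiol reductase induced by interferon gamma, was 242 and 219.9 FPKM in aged and 250.1 and 274 FPKM in young libraries. On the log2 scale the members' mean pattern was -0.072 and -0.137 in aged and 0.029 and 0.18 in young libraries. That of all tested genes was -0.012 and -0.061 in aged and -0.057 and 0.13 in young libraries, so part of the pattern was shared. The members' mean joins both directions, with log2 differences of -0.73 in B2m and 0.37 in Tap2. Those of Tgfbr2, Tmem106a and Ifi30 were -0.19, -0.20 and -0.18. Whether these genes are regulated with the members was not tested.

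Markers of macrophages were high in all libraries, with 6 summing to 11769 and 8746 FPKM in aged and 13626 and 11223 FPKM in young libraries, mostly Lyz2. Of these 6, both aged values were below both young values in 2, Adgre1 and Fcgr1, and above in 1, Csf1r. The shares over all genes tested were 26.2% and 11.8%. All nucleated cells carry class I, so markers of other cells were read as well. The 6 fibroblast markers summed to 87.5 and 62.7 FPKM in aged and 39.4 and 191 FPKM in young libraries, and 7 Schwann cell markers to 51.3 and 38.3 FPKM and 25.8 and 55.2 FPKM in the same order. Both sums were lowest in young replicate 1, where B2m, H2-D1 and Psmb9 were highest and Tap2 and Tapbp lowest. Both were highest in young replicate 2, where H2-K1, Tap1, Tap2, Psmb8 and Nlrc5 were highest. Tapbp and Psmb10 were highest in aged replicate 2. The 10 T and NK cell markers found of 11 listed summed to 11.1 and 112 FPKM in aged and 7.75 and 17.1 FPKM in young libraries, with 97.8 FPKM of the aged replicate 2 value from Cd3g and Cd3e at most 0.582 FPKM in any library. The 9 neutrophil markers found of 10 listed summed to 37.9 to 46.7 FPKM, dendritic cell markers to 47.3 to 70.6 FPKM, endothelial markers to 8.01 to 20.1 FPKM and 5 B cell markers of 7 listed to 7.23 to 30.4 FPKM over the 4 libraries. Retnlg was at 0 in both aged libraries and Cd3e in aged replicate 1. The part of these cells in the class I values was not tested.

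How many members separated depended on which scaling was used. With quantile scaling the same 6 members had both aged libraries below both young libraries, beside 22.3% of all genes. The median was then -0.02 for all genes and -0.32 for the members. Dividing by the median of ratios over genes moved the median of all genes to 0.02 and that of the members to -0.19. Both aged libraries then lay below both young libraries in 4 members, B2m, H2-D1, Tap1 and Psmb8, and in 18.8% of all genes, while H2-K1 and Psmb9 overlapped and Tapbp joined Psmb10 above. Those 4 members separated in the same direction under all 5 combinations of scaling and pseudocount that were read.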

How the data were processed

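RNA was measured in 4 libraries, 2 aged and 2 young, grouped by sample title, with table columns matched through the sample numbers in the labels. The authors deposited FPKM values for 24028 genes. Per the labels' protocols, oligo-dT primed cDNA was amplified by multiple displacement, which can copy transcripts unevenly. Per the submitters' processing notes, the tools were DESeq2, BWA 0.7.12 and bcl2fastq and the build mm10, with no role given. Neither counter nor annotation is stated in these sources.

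The deposited values had been divided by 12 read totals in turn along the sorted Entrez IDs. Each was multiplied by the total used and then divided by the total of the library it came from. After this, the values of 2888 of 2992 genes below 0.5 FPKM were in ratios of small whole numbers (multiples up to 10, tolerance 1e-04 per multiple), against 0 of 2992 as deposited. The scale of single genes shifts the aged minus young difference by -0.64 to 0.13 without this step.

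The test was limma 3.58.1 in R 4.3.3 on log2(FPKM + 1), with empirical Bayes and an intensity trend, two-sided, over those 11656 genes whose mean was at least 1 FPKM, adjusted by Benjamini-Hochberg at 0.05. Differences on this scale understate the change of low genes. The code was tested on simulated data. Reads were recovered as the smallest whole numbers within 0.05 reads. Shared 50-base stretches and exon overlaps came from GENCODE M21, promoters and positions from RefSeq, both GRCm38, the build mm10 names. Members and lists were chosen with earlier results of these data known. The genes named were all members, the most abundant pair of each list, a fixed set of pathway genes (Psmb5 to Psmb7, the PA28 and loading complex genes, H2-T23, H2-Q4, H2-Q7, Irf1, Irf2, Rfx5, Ciita, Ifngr1) and the 3 with the most similar pattern; 1 gene of the set is not reported here. Uggt1, Psmg1, Pomp, Ifnar2, Rela, Rfxank, Ifng and H2-M3 were named outside this rule, after their values were seen. Only the 3 ratios of inducible to constitutive subunits were planned. Alternatives were other scalings, pseudocounts, filters, no trend, a replicate block and leaving out each library. Sampling precision follows the read totals, and it covers counting error only.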

Additional observations from a re-analysis of the deposited data

How the results depend on the processing

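No member passed limma's test under any of the 12 alternatives, with adjusted p-values from 0.444 to 0.996, and all members but Tap2 kept their direction. Tap2 was -0.20 to 0.94 without a single library, with the opposite sign without young replicate 1. The members' median of -0.32 was -0.41 in the values as deposited and -0.19 with the median of ratios, and -0.34 to -0.19 without a single library. Psmb9 over Psmb6 was 0.20 as deposited and -0.48 to 0.32 without a single library, beside -0.08, and its sign was the opposite as deposited and without aged replicate 1. As deposited, the median of all genes was -0.31, H2-K1 and Psmb10 overlapped between ages and both aged values of Nlrc5 were below both young ones; log2 differences moved by over 1.5 times in B2m (-1.16), H2-K1 (-0.50), Tap1 (-1.08), Tap2 (0.22), Tapbp (0.10), Psmb8 (-0.80), Psmb10 (0.02) and Nlrc5 (-0.28). With the median of ratios they did so in H2-K1 (-0.10), Tapbp (0.36), Psmb10 (0.38) and Nlrc5 (-0.04), and with quantile scaling in Nlrc5 (-0.11). Without aged replicate 1 Psmb9 was -0.26 and Tap2 0.25. Without aged replicate 2 H2-D1 was -0.31, H2-K1 -0.12, Psmb8 -0.26, Psmb10 0.16 and Nlrc5 -0.10. Without young replicate 1 Tapbp was 0.07 and Nlrc5 -0.28, and without young replicate 2 Tapbp was 0.40, Tap2 0.94 and Nlrc5 -0.06. The cause was not tested. Same-numbered libraries did not deviate together (Pearson r of -3.84e-04 over 11656 genes), and the numbers are not said to pair samples. With the replicate number as a block limma called 1 gene in place of 0, with 773 genes at an unadjusted p under 0.05 without the block and 906 with it, and B2m had an adjusted p of 0.509. Leaving out a library leaves a lone sample in its group, assumed to vary like the others. With 2 pools per age the spread rests on few values, and the lowest Tap2 value rests on 150 reads.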
